A study of Mus musculus with 12 samples.

Results

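Expression of 8 genes that carry glucose sensing and the mature state of pancreatic beta cells was followed in the islets of WFS1-deficient mice: Slc2a2, G6pc2, Kcnj11, Abcc8, Ucn3, Slc30a8, Ppp1r1a and Aldh1a3. They were taken by gene name from a table of 24078 transcripts, in which all 8 were present and all 8 passed the filter on low values (mean over the animals of 0.1 RPKM or more). RPKM is the number of reads scaled to transcript length and to the number of mapped reads. Islet RNA came from 12 male mice, 4 wild-type (WT), 4 heterozygous (Wfs1HZ) and 4 homozygous (Wfs1KO) for the Wfs1tm1Koks mutation, with 1 library for each animal. In this allele a LacZ cassette takes the place of most of exon 8 of Wfs1; the allele is not limited to beta cells. All animals were F2 hybrids of a cross between C57BL/6 and another inbred strain, the same cross in every group, aged 5 to 6 months. In every group the islets were picked by hand after collagenase digestion and kept overnight in high-glucose medium before RNA was extracted, so no freshly isolated islets were measured.

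Beta cells take up glucose through a transporter of the plasma membrane, and its phosphorylation sets the rate of its metabolism. The ATP that follows closes a potassium channel (the K-ATP channel), the membrane depolarizes, calcium enters and insulin granules are released. Mature beta cells hold genes of this chain and of the granule at high levels, while beta cells under long metabolic stress are known to lose them and to gain genes that are normally kept low there, a state called dedifferentiation. WFS1 is a membrane protein of the endoplasmic reticulum that is abundant in beta cells.

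The members map to 5 chromosomes of GRCm38 (mm10), and none lies on chromosome 5, which holds Wfs1 (chr5:36966104-36989205). Slc2a2 lies at chr3:28697903-28731359, G6pc2 at chr2:69211073-69227841 and Ucn3 at chr13:3940688-3945349. Slc30a8 (chr15:52295553-52335798) and Ppp1r1a (chr15:103530279-103538003) share chromosome 15. Chromosome 7 holds Aldh1a3 (chr7:66390890-66427517), Kcnj11 (chr7:46093953-46100764) and Abcc8 (chr7:46104523-46180033). The last 2 are the subunits of the K-ATP channel and lie 3758 bp apart on the same strand. The matched Kcnj11 transcript is a single exon, whereas the matched Abcc8 transcript has 39 exons. In the GENCODE M21 annotation no other gene shares exon sequence with a member.

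The RefSeq promoter table held windows for 3 of the 8 members, and the 250 bases before the start site are given here for G6pc2 and Ucn3, the members whose levels were most alike across animals, and for the glucose transporter Slc2a2. Capitals mark letters of motifs bound by known beta cell factors: CTAATG for PDX1, CAGATG for NEUROD1 and TGCTGAC for MAFA, each searched on both strands, and GTTAAT for HNF1, which had no match. The windows are G6pc2 chr2:69219699-69219948, Slc2a2 chr3:28697653-28697902 (both on the plus strand) and Ucn3 chr13:3945350-3945599 (minus strand), all of GRCm38.p6 and written 5′ to 3′.
G6pc2: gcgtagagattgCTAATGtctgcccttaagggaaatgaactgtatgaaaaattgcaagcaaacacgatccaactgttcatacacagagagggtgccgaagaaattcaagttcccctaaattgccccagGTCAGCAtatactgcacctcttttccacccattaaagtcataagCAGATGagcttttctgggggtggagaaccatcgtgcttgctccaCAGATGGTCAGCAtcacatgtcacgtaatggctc
Slc2a2: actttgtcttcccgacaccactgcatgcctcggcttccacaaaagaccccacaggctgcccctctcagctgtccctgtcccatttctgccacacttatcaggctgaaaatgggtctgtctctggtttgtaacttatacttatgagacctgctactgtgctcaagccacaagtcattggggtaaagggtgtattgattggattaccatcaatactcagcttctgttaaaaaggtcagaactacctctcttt
Ucn3: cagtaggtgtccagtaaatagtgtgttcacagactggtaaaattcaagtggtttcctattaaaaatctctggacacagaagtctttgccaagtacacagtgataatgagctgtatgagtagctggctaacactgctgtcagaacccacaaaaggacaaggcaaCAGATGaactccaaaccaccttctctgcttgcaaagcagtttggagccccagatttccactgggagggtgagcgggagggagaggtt
The G6pc2 window held 5 matches. CTAATG began 238 bases before the start site, CAGATG 78 and 34 bases before it, and GTCAGCA, the reverse complement of the MAFA letters, 122 and 28 bases before it. Ucn3 held 1 match, CAGATG at 87 bases, and Slc2a2 held none. A second G6pc2 window, chr2:69210823-69211072, before another annotated start, also held none. Such short motifs are common: of 32851 promoter windows 6.36% held CTAATG, 14.4% CAGATG, 3.81% TGCTGAC and 6.43% GTTAAT. A match describes letters only, and binding was not measured.

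The genotype was checked first on Wfs1 itself. Its level was 33.94, 27.37, 24.85 and 28.43 RPKM in WT islets, 15.03, 4.69, 16.43 and 8.16 RPKM in Wfs1HZ islets, and 5.08, 6.61, 3.46 and 2.45 RPKM in Wfs1KO islets. Every Wfs1KO animal and every Wfs1HZ animal lay below every WT animal, while Wfs1HZ and Wfs1KO overlapped. In Wfs1KO against WT islets the log2 fold change was -2.76 (SE 0.294, limma, adjusted p = 0.04), and over 18 alternative settings the adjusted p ran from 0.00142 to 0.541.

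The depth behind the values was 2192000 to 9554000 reads, estimated from the steps between low values of short RNA genes. The study reports many more reads per sample than this, and which reads the deposited values count is not known here. By this estimate 3 reads on a transcript of 2 kb are 0.157 RPKM in the deepest library, Wfs1KO replicate 1. They are 0.684 RPKM in the shallowest, Wfs1HZ replicate 2. The shallowest library nevertheless had 20954 transcripts above 0, and the deepest 20775, so the estimate is uncertain. On this estimate Aldh1a3 rested on 8 to 162.5 reads in an animal and Ppp1r1a on 20 to 324.6, and the other members had at least 52.5 reads in every animal. These numbers cover counting error only. Islet preparations differed in the other cells they held: the summed RPKM of 14 acinar (digestive enzyme) genes ran from 9594 in Wfs1KO replicate 4 to 320933 in Wfs1HZ replicate 4. The summed RPKM of 8 alpha cell genes, led by glucagon (Gcg), was 185865 in WT replicate 2, 157738 in Wfs1HZ replicate 2 and 221194 in Wfs1KO replicate 4, and 51134 to 111259 in the other animals. No acinar or alpha marker in the table was at 0 in any animal. Ins2, an insulin gene and a defining marker of beta cells, was at 6423 to 76687 RPKM, but Mafa, a defining beta cell factor, was listed at 0 in 10 of the 12 animals, WT animals included.

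Ordered by mean level over all animals, the members ran from G6pc2 (77.96 RPKM) through Slc30a8 (51.41), Ucn3 (48.37), Abcc8 (45.32), Kcnj11 (15.58), Ppp1r1a (14.41) and Slc2a2 (6.659) to Aldh1a3 (2.755 RPKM). Abcc8 stood above Kcnj11 in 12 of 12 animals and Ppp1r1a above Slc2a2 in 12 of 12. The other neighbours in this order did not separate: G6pc2 was above Slc30a8 in 9 animals, Slc30a8 above Ucn3 in 5, Ucn3 above Abcc8 in 6 and Kcnj11 above Ppp1r1a in 8. The lowest pair differed by genotype, since Slc2a2 was above Aldh1a3 in 4 of 4 WT and 4 of 4 Wfs1HZ animals and Aldh1a3 was above Slc2a2 in 4 of 4 Wfs1KO animals. G6pc2 had a higher mean than 98.2% of the transcripts in the table, Slc2a2 than 71.6% and Aldh1a3 than 58.1%.

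**Figure D1:**
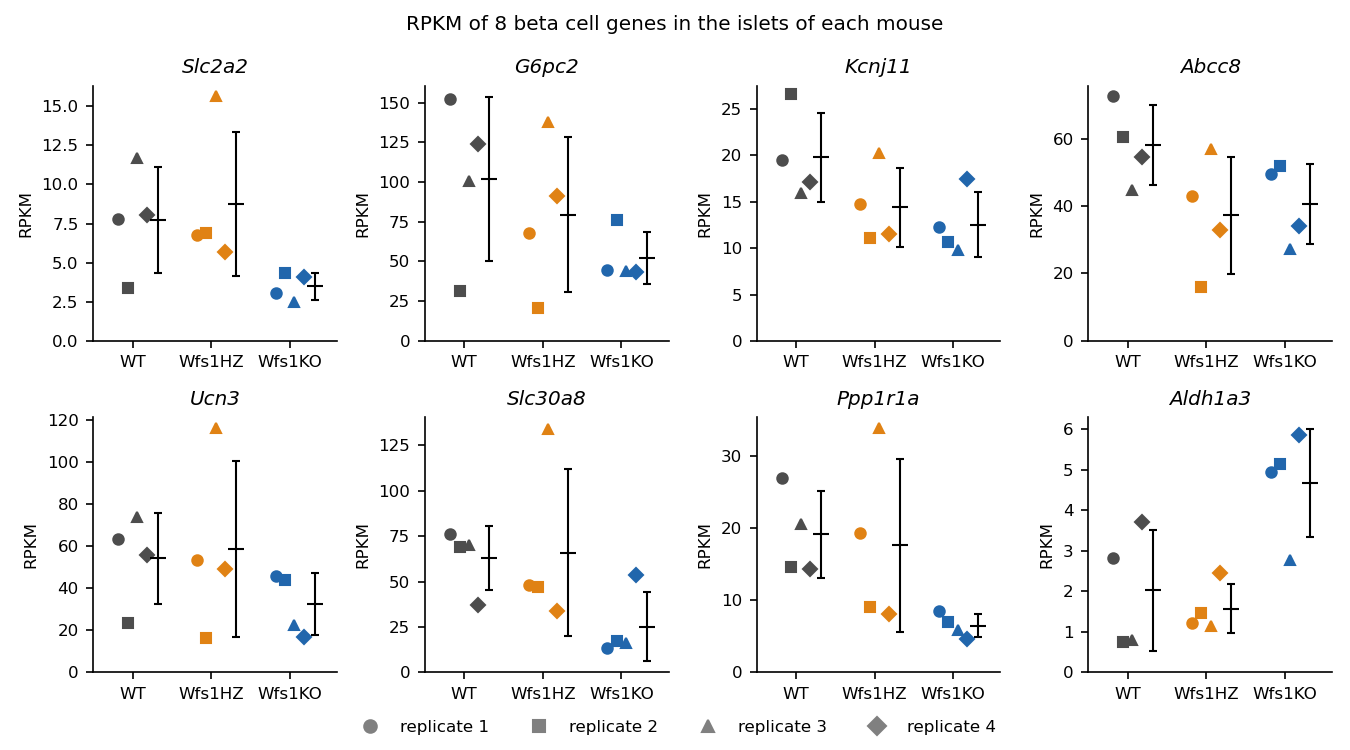
RPKM (linear axis from 0) of each of the 8 genes in the islets of each mouse, by genotype, with symbols for the replicate number and a bar for the mean ± SD of 4 animals. Ppp1r1a was lower in all 4 Wfs1KO animals (4.67 to 8.5 RPKM) than in any WT animal (14.3 to 27), Aldh1a3 had its highest mean in Wfs1KO animals (2.76 to 5.86), and Wfs1HZ replicate 3 was high for most genes.

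The comparison of Wfs1KO with WT islets asked how these genes differ when both copies of Wfs1 are mutated. The allele leaves the first exons in place, and in this line a truncated protein joined to LacZ is still made. Of the 8 members 7 had a lower mean log2 level in Wfs1KO islets and Aldh1a3 a higher one. The differences were largest for Ppp1r1a (2.88-fold lower), Slc30a8 (2.85-fold lower), Aldh1a3 (2.7-fold higher) and Slc2a2 (2.04-fold lower). None passed the test across all 21701 transcripts (limma on log2(RPKM + 0.1), Benjamini-Hochberg adjusted p from 0.342 to 0.879), where 0.0138% of all transcripts passed. At an unadjusted limma p under 0.05 stood 5 members, 4 lower and 1 higher, and 5.64% of all transcripts, 1.74% lower and 3.91% higher. The median log2 fold change of the members was -0.77, beside 0.07 over all transcripts, of which 42.2% were below 0. Over 18 alternative settings the unadjusted p was under 0.05 in 18 for Slc30a8 and Ppp1r1a, 15 for Kcnj11, and 12 each for Slc2a2 and Aldh1a3. The count of 5 became 3 without Wfs1KO replicate 3. It became 7 when values were set relative to 7 genes that all endocrine islet cells share, and 6, all lower, without WT replicate 2 and Wfs1KO replicate 4, the animals with the most alpha cell RNA, an alternative chosen after seeing the data. In bulk islets fewer beta cells and less RNA per beta cell cannot be told apart. The 8 genes were measured in the same animals, so they are not independent of each other. They were also chosen with earlier results of these data known, so their shares beside all transcripts are a description.

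Slc2a2 encodes GLUT2, the main glucose transporter of mouse beta cells. It was at 7.81, 3.37, 11.69 and 8.05 RPKM in WT islets and at 3.03, 4.34, 2.5 and 4.11 RPKM in Wfs1KO islets. WT replicate 2 lay inside the Wfs1KO range and the other 3 WT animals lay above it. The log2 fold change was -1.03 (SE 0.378, limma p = 0.0234, adjusted p = 0.835), and the exact two-sided permutation test gave p = 0.0857. In Wfs1HZ islets Slc2a2 was at 6.79, 6.88, 15.63 and 5.71 RPKM, and all 4 of these animals were above all 4 Wfs1KO animals. Against Wfs1HZ the log2 fold change of Wfs1KO was -1.21 (SE 0.377, limma p = 0.00882, adjusted p = 1, exact permutation p = 0.0286, the smallest that 4 against 4 animals can give). Wfs1HZ and WT islets did not separate, with a log2 difference of 0.18 and a 95% interval of -0.78 to 1.15.

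G6pc2 encodes the islet glucose-6-phosphatase, which returns glucose 6-phosphate to glucose. Its level was 152.3, 31.28, 100.91 and 124.04 RPKM in WT, 68.25, 20.68, 137.95 and 91.32 RPKM in Wfs1HZ and 44.83, 76.32, 44.14 and 43.47 RPKM in Wfs1KO islets. The Wfs1KO values lay within the range of the WT animals, where replicate 2 was far below the rest. The log2 fold change of Wfs1KO against WT was -0.80 (SE 0.462, limma p = 0.119, adjusted p = 0.879, exact permutation p = 0.229). Without WT replicate 2 and Wfs1KO replicate 4 it was -1.22 (limma, adjusted p = 0.394).

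The K-ATP channel is built from the pore Kir6.2, encoded by Kcnj11, and the sulfonylurea receptor SUR1, encoded by Abcc8. Kcnj11 was at 19.53, 26.6, 15.89 and 17.15 RPKM in WT, 14.78, 11.11, 20.22 and 11.47 RPKM in Wfs1HZ and 12.24, 10.7, 9.75 and 17.5 RPKM in Wfs1KO islets. Of the Wfs1KO animals 3 lay below all WT animals and replicate 4 lay among them. The log2 fold change of Kcnj11 in Wfs1KO against WT islets was -0.66 (SE 0.237, limma p = 0.0209, adjusted p = 0.835, exact permutation p = 0.0857).

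Abcc8 was at 72.74, 60.55, 44.68 and 54.45 RPKM in WT, 43.06, 16.07, 57.04 and 32.81 RPKM in Wfs1HZ and 49.41, 51.76, 27.21 and 34.05 RPKM in Wfs1KO islets. All pairs of genotypes overlapped for Abcc8, although 3 of 4 Wfs1HZ animals lay below all WT animals. Its log2 fold change was -0.54 in Wfs1KO against WT (SE 0.248, limma p = 0.0559, adjusted p = 0.879) and -0.76 in Wfs1HZ against WT (SE 0.36, limma p = 0.0614, adjusted p = 1, exact permutation p = 0.114). The ratio of Abcc8 to Kcnj11 was 3 ± 0.606 in WT, 2.51 ± 0.708 in Wfs1HZ and 3.4 ± 1.29 in Wfs1KO islets (mean ± SD, n = 4), and the genotypes overlapped.

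Ucn3 encodes urocortin 3, a peptide that beta cells release with insulin, which in mouse appears only as they mature. It was at 63.57, 23.55, 73.67 and 55.69 RPKM in WT, 53.17, 16.2, 116.05 and 49.19 RPKM in Wfs1HZ and 45.77, 44.08, 22.56 and 16.92 RPKM in Wfs1KO islets. The genotypes overlapped, with WT replicate 2 and Wfs1HZ replicate 2 below the 2 higher Wfs1KO animals. The log2 fold change of Ucn3 in Wfs1KO against WT was -0.75 (SE 0.433, limma p = 0.118, adjusted p = 0.879, exact permutation p = 0.171), and in Wfs1KO against Wfs1HZ it was -0.67 (SE 0.55, limma p = 0.252, adjusted p = 1).

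Slc30a8 encodes ZnT8, which loads zinc into insulin granules. Its level was 76.33, 69.06, 70 and 37.19 RPKM in WT, 48.34, 47.3, 133.95 and 33.78 RPKM in Wfs1HZ and 13.33, 17.31, 16.44 and 53.89 RPKM in Wfs1KO islets. In Wfs1KO islets 3 of 4 animals lay below all WT and all Wfs1HZ animals, and replicate 4 was far above the other 3. Slc30a8 had a log2 fold change of -1.51 in Wfs1KO against WT (SE 0.433, limma p = 0.00669, adjusted p = 0.835, exact permutation p = 0.0571) and of -1.41 against Wfs1HZ (SE 0.507, limma p = 0.0189, adjusted p = 1, exact permutation p = 0.114).

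Ppp1r1a encodes inhibitor 1 of protein phosphatase 1, which acts once protein kinase A has phosphorylated it. It was at 27, 14.61, 20.58 and 14.3 RPKM in WT, 19.3, 9.11, 33.87 and 8.12 RPKM in Wfs1HZ and 8.5, 7, 5.82 and 4.67 RPKM in Wfs1KO islets. Every Wfs1KO animal lay below every WT animal, the only member with no overlap in this comparison, where 0.991% of all transcripts were lower without overlap. The log2 fold change of Ppp1r1a was -1.53 (SE 0.268, limma p = 0.000284, adjusted p = 0.342, exact permutation p = 0.0286). Over the 18 alternative settings the log2 fold change had values of -1.67 to -1.34 and a lowest adjusted p of 0.164. Against Wfs1HZ, where replicate 4 reached into the Wfs1KO range, the log2 fold change was -1.21 (SE 0.443, limma p = 0.0203, adjusted p = 1, exact permutation p = 0.0571). Ppp1ca, the catalytic subunit that the inhibitor acts on, was at 55.94 to 96.29 RPKM in Wfs1KO and 65.66 to 97.68 RPKM in WT islets. The ratio of Ppp1r1a to Ppp1ca was 0.0485 to 0.125 in Wfs1KO, 0.159 to 0.313 in WT and 0.138 to 0.425 in Wfs1HZ islets, a ratio chosen after the values were seen.

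Aldh1a3 encodes an aldehyde dehydrogenase that makes retinoic acid and is known as a marker of failing beta cells. It was at 2.83, 0.75, 0.8 and 3.7 RPKM in WT, 1.21, 1.47, 1.15 and 2.45 RPKM in Wfs1HZ and 4.94, 5.14, 2.76 and 5.86 RPKM in Wfs1KO islets. All 4 Wfs1KO animals lay above all 4 Wfs1HZ animals, and 3 of 4 lay above all WT animals. The log2 fold change of Aldh1a3 was 1.43 in Wfs1KO against WT (SE 0.542, limma p = 0.0266, adjusted p = 0.84, exact permutation p = 0.0857) and 1.53 against Wfs1HZ (SE 0.418, limma p = 0.00427, adjusted p = 1, exact permutation p = 0.0286). Without WT replicate 2 and Wfs1KO replicate 4 the value against WT was 0.97 (limma, adjusted p = 0.761), no longer at an unadjusted p under 0.05. Taken within each animal, Aldh1a3 was 0.108 to 0.346 of the Ucn3 level in Wfs1KO islets, 0.0109 to 0.0664 in WT islets and 0.00991 to 0.0907 in Wfs1HZ islets. This ratio, chosen after the values were seen, did not overlap between Wfs1KO and either other genotype.

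**Figure D2:**
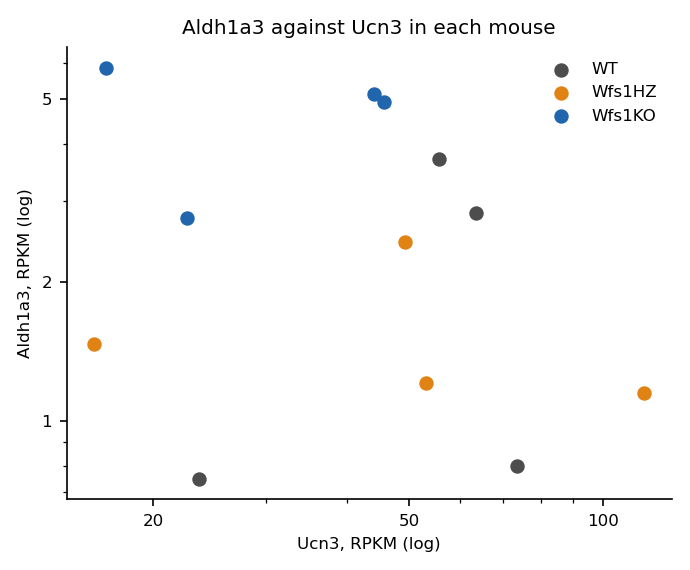
Aldh1a3 (vertical) against Ucn3 (horizontal), both as RPKM on log axes, with 1 point for each mouse coloured by genotype. The 4 Wfs1KO animals have Aldh1a3 at 2.76 to 5.86 RPKM and Ucn3 at 16.92 to 45.77 RPKM. The ratio of Aldh1a3 to Ucn3 in them (0.108 to 0.346), chosen after the values were seen, is above that in every other animal.

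Wfs1KO was also compared with Wfs1HZ islets, which carry 1 mutated copy of the gene. Here 6 members had a lower and 2 a higher mean log2 level in Wfs1KO islets, with a median log2 fold change of -0.51 beside 0.04 over all transcripts, of which 46.3% were below 0. No member and none of all transcripts (0%) had an adjusted limma p under 0.05. The study's own test on read counts did report genes that passed 0.05 after adjustment in this comparison. The 0% thus holds for this fit on RPKM only. At an unadjusted p under 0.05 were Slc2a2, Slc30a8 and Ppp1r1a, lower, and Aldh1a3, higher, 4 members in all, where 2.45% of all transcripts passed in either direction (0.756% lower, 1.7% higher). Slc2a2 was lower and Aldh1a3 higher without overlap, as were 0.502% and 0.926% of all transcripts. These 2 genes kept an unadjusted p under 0.05 in 18 of 18 alternative settings each, Ppp1r1a in 15 and Slc30a8 in 14. The count of 4 became 2 without Wfs1HZ replicate 3 and 7 with sample weights. Kcnj11 (-0.19, 95% interval -0.82 to 0.44), Abcc8 (0.22, -0.64 to 1.07) and G6pc2 (-0.36, -1.48 to 0.76) gave intervals that reach well to both sides of 0.

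Between Wfs1HZ and WT islets the log2 fold changes of the members ran from -0.76 for Abcc8 to 0.18 for Slc2a2, with a median of -0.21 beside 0.04 over all transcripts. The value was below 0 for 7 members, beside 46.5% of all transcripts. No member had an adjusted limma p under 0.05, as for all transcripts (0%), and none had an unadjusted p under 0.05, where 2.35% of all transcripts did (1.09% higher, 1.27% lower). None was without overlap, against 1.66% of all transcripts (0.576% higher, 1.08% lower). Without Wfs1HZ replicate 3 Kcnj11 and Abcc8 had an unadjusted p under 0.05, 2 members in all. The intervals were wide: -1.84 to 0.97 for G6pc2, -1.33 to 1.17 for Ucn3, -1.03 to 0.82 for Slc30a8, -1.30 to 0.68 for Ppp1r1a and -1.46 to 1.28 for Aldh1a3. In all 24 comparisons were made, and those of Wfs1KO and of Wfs1HZ with WT used the same 4 WT animals.

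**Figure D3:**
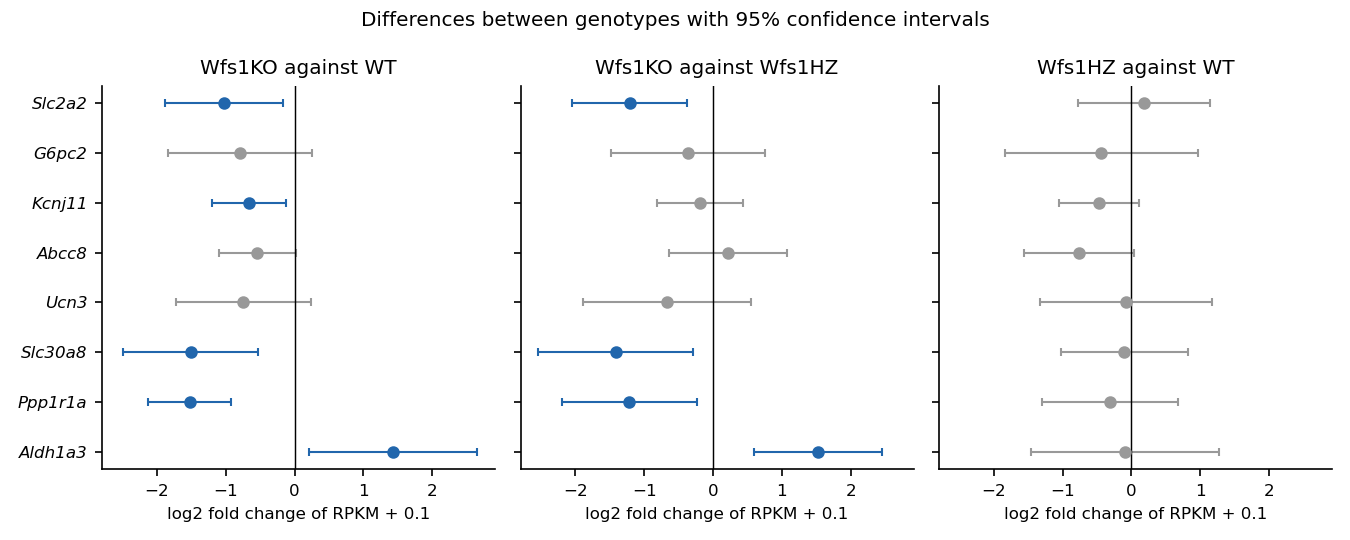
Log2 fold change of RPKM + 0.1 with its 95% confidence interval for each gene in the 3 comparisons of genotypes. Blue marks an unadjusted limma p under 0.05 (5, 4 and 0 genes from left to right) and grey the rest, and no gene had an adjusted p under 0.05.

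Animals of the same genotype differed widely for most members. Wfs1HZ replicate 3 was the highest of its genotype for 7 of the 8 members. WT replicate 2, Wfs1HZ replicate 2 and Wfs1KO replicate 4, the animals with the most alpha cell RNA, were each the lowest of their genotype for both G6pc2 and Ucn3. In Wfs1KO islets the gap in G6pc2 was small. It was at 43.47 RPKM in replicate 4 and at 44.83 and 44.14 RPKM in replicates 1 and 3, which had the least alpha cell RNA. Ucn3 was at 22.56 RPKM in Wfs1KO replicate 3. The 3 animals with the most alpha cell RNA were also the lowest of their genotype for Ins2, at 15292, 6423 and 9199 RPKM. Slc30a8 did not follow this order, being 69.06, 47.3 and 53.89 RPKM in these animals, the last the highest of the Wfs1KO animals. The part of alpha cells in these values was not tested beyond leaving those animals out. Among non-endocrine markers, the sum of 8 stromal genes was 62.07 to 153.22 RPKM in Wfs1KO and 21.37 to 62.43 RPKM in WT islets, and that of 8 endothelial genes 87.81 to 109.08 and 33.11 to 97.85 RPKM. In Wfs1HZ islets these sums were 14.08 to 425 and 33.08 to 161.37 RPKM, ranges that enclose both other genotypes. Stromal Dcn and Lum and endothelial Cdh5 had an unadjusted limma p under 0.05, higher in Wfs1KO than in WT islets. No marker of these lists was at 0 in any WT or Wfs1KO animal. Their part in the members' values was not tested. Of the other marker lists, no acinar, delta, PP, immune or shared endocrine gene had an unadjusted p under 0.05 in any comparison. Of the 8 alpha genes Slc38a5 did (higher, Wfs1KO against Wfs1HZ), as did 1 lower gene in Wfs1KO against WT. For the most abundant marker genes the limma test could hardly reach that threshold. In Wfs1KO against WT its SE on the log2 scale was 4.59 for Gcg and 3.32 for Ctrb1. Such p-values therefore say little about the cell mixture. The summed RPKM of the 7 shared endocrine genes was 2987 to 6025 in Wfs1KO and 3810 to 4657 in WT islets. Relative to those genes the log2 fold change in Wfs1KO against WT was -1.55 for Ppp1r1a, -1.54 for Slc30a8, -1.06 for Slc2a2 and 1.41 for Aldh1a3.

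**Figure D4:**
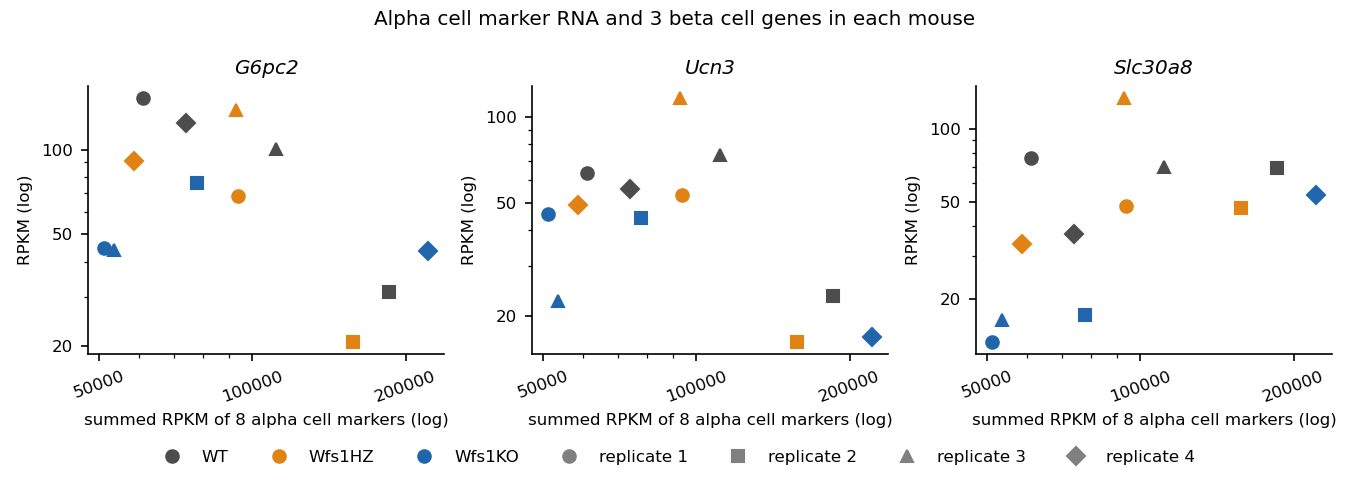
RPKM of G6pc2, Ucn3 and Slc30a8 (vertical, log axis) against the summed RPKM of 8 alpha cell markers (horizontal, log axis) in each mouse, coloured by genotype and with symbols for the replicate number. The 3 animals at the right, at 157738 and above, have low G6pc2 (20.68 to 43.47 RPKM) and Ucn3 (16.2 to 23.55) but not low Slc30a8 (47.3 to 69.06). Wfs1KO replicates 1 and 3, at the far left, have similar G6pc2 (44.83 and 44.14 RPKM), and replicate 3 similar Ucn3 (22.56).

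Across the 12 animals the log2 levels of G6pc2 and Ucn3 were the most alike of all member pairs (Pearson r = 0.88, Spearman rho = 0.91). Next were Slc2a2 with Ppp1r1a (r = 0.77) and Kcnj11 with Slc30a8 (r = 0.76), while the channel subunits Kcnj11 and Abcc8 gave r = 0.64. Aldh1a3 had its lowest r with Slc30a8 and Ppp1r1a (both -0.63). All these values share the genotypes and the cell mixture of the 12 islet samples and are given as a description. Among the 8003 transcripts whose mean reached 5 RPKM, Glp1r, the receptor of the incretin GLP-1, and Ero1lb, an oxidase that helps proinsulin fold, were the most like both G6pc2 (r = 0.931 and 0.926) and Ucn3 (0.948 and 0.925). The closest to Abcc8 were C630020P19Rik (0.952) and Ptprn2 (0.932), a protein of the granule membrane. Slc2a2 had r = 0.89 with Sh3kbp1, and Kcnj11 was closest to Ociad2 (0.872) and Rap1gap2 (0.858). For Slc30a8 the closest were Hadh (0.881) and Lifr (0.86), for Ppp1r1a Phkb (0.888) and Hspa8 (0.868), and for Aldh1a3 Rpp25 (0.881) and Ndufa12 (0.863).

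Other genes of the same pathways were counted from lists, all with adjusted p of 0.342 or more in Wfs1KO against WT islets. Over these lists 10 genes had an unadjusted p under 0.05 in that comparison, which became 5 without WT replicate 1 and 16 without WT replicate 2. In Wfs1KO against Wfs1HZ 2 genes did (1 to 8 with each animal left out, 15 with sample weights), and in Wfs1HZ against WT 4 did (1 to 8 with each animal left out). The lists held 9, 17, 14, 14, 5, 9 and 11 tested genes, some on more than 1 list. Of all transcripts 5.64% passed that threshold in Wfs1KO against WT, 2.45% in Wfs1KO against Wfs1HZ and 2.35% in Wfs1HZ against WT. Beside these shares, 1 gene at the threshold is not a result about its list. The lists were chosen with earlier results of these data known. Of 9 genes of glucose uptake and phosphorylation, none had an unadjusted p under 0.05 in any comparison, and Slc2a1 (GLUT1), the most abundant, was at 34.14 to 85.69 RPKM in WT and 27.71 to 96.07 RPKM in Wfs1KO islets. Of 17 tested genes of the mature beta cell 2 had an unadjusted limma p under 0.05, both lower in Wfs1KO than in WT islets, with a list median log2 fold change of -0.45. The median of the same list was -0.42 in Wfs1HZ against WT (1 of 17 above 0) and 0.11 in Wfs1KO against Wfs1HZ (11 of 17 above 0), with no gene at an unadjusted p under 0.05. The genes at that threshold were Ero1lb (-0.87, SE 0.318, limma p = 0.0234, exact permutation p = 0.0571) and Sytl4 (-1.14, SE 0.468, limma p = 0.0379, exact permutation p = 0.0857), which encodes granuphilin, a protein that docks insulin granules. Ero1lb was at 15.55 to 38.7 RPKM in WT and 11.47 to 22.85 RPKM in Wfs1KO islets, so the animals overlapped.

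Of 14 genes of immature or dedifferentiated beta cells, 12 had a log2 fold change above 0 in Wfs1KO against WT islets, with a median of 0.74. Of all transcripts 42.2% were below 0, and their median was 0.07. The list was chosen with earlier results of these data known, so this contrast is a description and not a test. An unadjusted limma p under 0.05 was reached by 4 higher genes and 1 lower gene, beside 3.91% and 1.74% of all transcripts. In all 5 the animals did not overlap, as in 1.75% (higher) and 0.991% (lower) of all transcripts. Higher were Myc (28.13 to 59.02 RPKM in Wfs1KO and 18.38 to 25.07 RPKM in WT islets), a growth factor-responsive transcription factor, and Cd81 (222.08 to 319.77 and 114.73 to 220.98 RPKM), a surface protein of immature beta cells. Slc16a1 (5.78 to 7.48 and 3.14 to 5.38 RPKM), a lactate transporter normally kept low in beta cells, and Sox9 (6.66 to 7.15 and 3.06 to 5.41 RPKM), a progenitor factor, were also higher. Against Wfs1HZ none of these 4 genes had an unadjusted p under 0.05 in Wfs1KO islets, and all overlapped. Sox9 averaged 6.935 RPKM in Wfs1KO and 7.35 RPKM in Wfs1HZ islets, and Slc16a1 was at 1.38 to 10.72 RPKM in Wfs1HZ islets. Sox9 is also a duct marker, and of 8 duct genes it alone had an unadjusted p under 0.05 in Wfs1KO against WT islets. Among Wfs1HZ animals, Myc, Cd81, Slc16a1 and Sox9 were each highest in replicate 2, which had the largest stromal marker sum (425 RPKM). Each was lowest in replicate 4, which had the smallest (14.08 RPKM). Whether the differences in these genes arose in beta cells or in other cells was not tested. Cck, the cholecystokinin gene, was at 10.13 to 23.29 RPKM in Wfs1KO and 1.16 to 5.95 RPKM in Wfs1HZ islets, without overlap (log2 fold change 2.30, SE 0.479, limma p = 0.000667, adjusted p = 1, exact permutation p = 0.0286). In WT islets Cck was at 0 to 10.45 RPKM, which overlapped with Wfs1KO islets (limma p = 0.0802, exact permutation p = 0.0571). None of these genes passed the adjusted test.

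**Figure D5:**
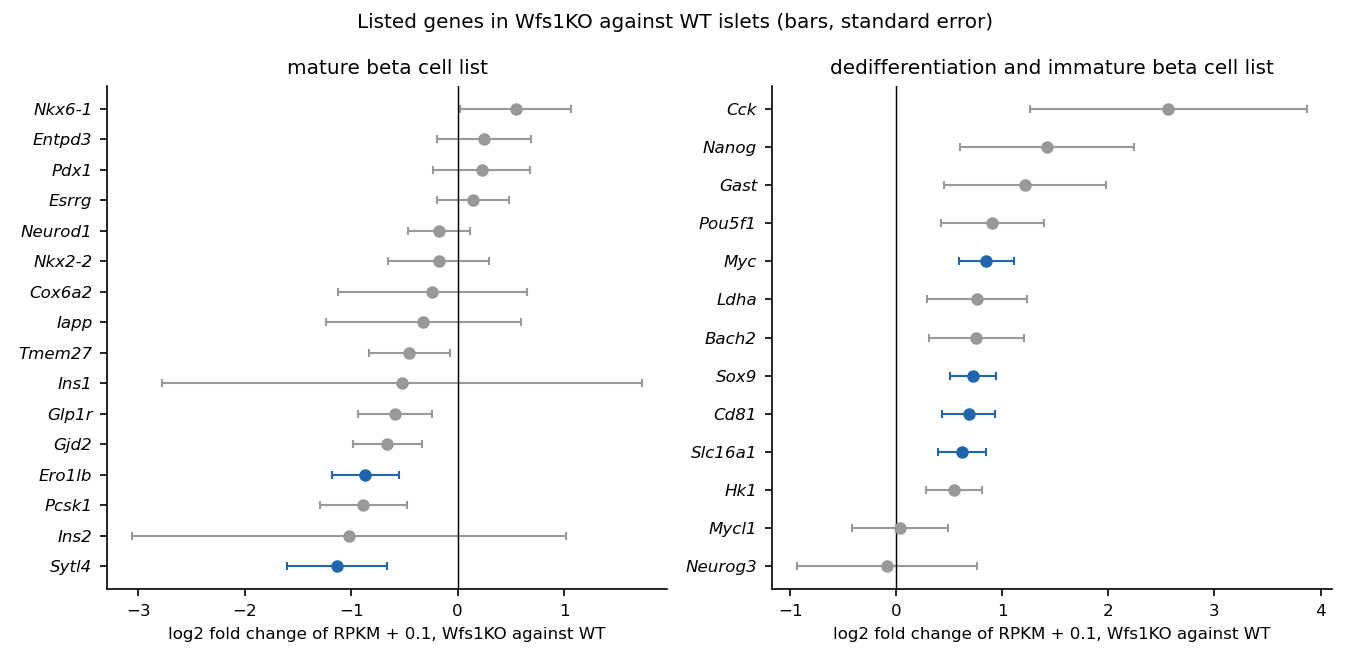
Log2 fold change of RPKM + 0.1 in Wfs1KO against WT islets with its standard error, for tested genes of the mature beta cell list (left, 16 genes drawn) and of the dedifferentiation list (right, 13 genes drawn). Blue marks an unadjusted limma p under 0.05 (2 and 4 genes). On the right 12 of the 13 genes lie above 0, while 42.2% of all transcripts were below 0. Both lists were chosen with earlier results of these data known.

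Of 14 other genes of retinoid handling, Rara, a retinoic acid receptor, was at 3.7 to 4.78 RPKM in WT, 5.75 to 8.76 RPKM in Wfs1HZ and 7.85 to 9.86 RPKM in Wfs1KO islets. Both mutant genotypes lay above all WT animals, with a log2 fold change of 1.03 in Wfs1KO (SE 0.181, limma p = 0.000271, adjusted p = 0.342) and 0.62 in Wfs1HZ islets (SE 0.252, limma p = 0.0345, adjusted p = 1, exact permutation p = 0.0286 in both). Crabp1, a retinoic acid binding protein, was at 0 in every Wfs1HZ animal and at 0 to 0.92 RPKM in WT islets, near the floor of 3 reads. The other 12 genes had an unadjusted p of 0.05 or more in each comparison. Of 9 genes of protein phosphatase 1 and protein kinase A, Prkar1a, a regulatory subunit of the kinase, was at 104.11 to 130.24 RPKM in Wfs1KO and 131.22 to 225.87 RPKM in WT islets (log2 fold change -0.47, SE 0.206, limma p = 0.0472, exact permutation p = 0.0286). Of 5 tested genes of the urocortin system none had an unadjusted p under 0.05, and Crhr2, a receptor of urocortin 3, was at 0.06 to 0.5 RPKM in WT and 0.05 to 1.03 RPKM in Wfs1KO islets, values of few reads.

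Among 11 relatives of the K-ATP and zinc transporter members, Slc30a10, a manganese transporter of the same family as ZnT8, was at 0.25 to 1.08 RPKM in Wfs1KO and 0.06 to 0.25 RPKM in WT islets (limma p = 0.0225, exact permutation p = 0.0571), levels of few reads. Slc30a2 was at 0.33 to 0.91 RPKM in Wfs1KO and 0.68 to 2.81 RPKM in Wfs1HZ islets (limma p = 0.0355, exact permutation p = 0.0571). Slc30a7 and Slc30a6, zinc transporters of the secretory pathway, were lower in all 4 Wfs1HZ than in all 4 WT animals (5.67 to 8.3 against 9.54 to 11.61 RPKM, and 3.93 to 4.85 against 5.08 to 11.66 RPKM, limma p = 0.0183 and 0.0416, exact permutation p = 0.0286 for both). Of the 11 listed relatives none but Slc30a10 had an unadjusted p under 0.05 in Wfs1KO against WT islets.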

How the data were processed

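Islet RNA of 12 mice, 4 per genotype, was made into cDNA with the Ovation system, and SOLiD fragment libraries were mapped by the authors to mm10 with LifeScope. The authors deposited RPKM values, 1 column per animal. The gene annotation and counting tool are not given in the sources used here. The study tested counts with edgeR, which RPKM do not allow, so each pair of genotypes was fitted with limma (3.58.1, R 4.3.3) with a variance trend on log2(RPKM + 0.1), which understates changes of low genes. Benjamini-Hochberg adjustment covered 21701 transcripts whose mean over the animals reached 0.1 RPKM. In Wfs1KO against WT and against Wfs1HZ the study reported more genes after adjustment than passed here. For single genes the mean log2 values were also tested by exact two-sided permutation (scipy 1.17.1, with Python 3.11.15, pandas 2.3.3 and numpy 2.4.6, plots by matplotlib 3.10.9). The procedure was tested on simulated data.

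Depth, 2192000 to 9554000 reads, was estimated from 60 low values of genes under 200 nt in each library, of which 78.3% to 98.3% were whole reads within 0.1. Coordinates come from GENCODE M21, and promoters from the RefSeq table of GRCm38.p6. The 8 members and all gene and marker lists were chosen with earlier results of these data known. Named are all members, Wfs1, each listed gene with an unadjusted p under 0.05 in any comparison (otherwise the most abundant of its list) and the 2 transcripts most like each member. Ins2, Mafa, Ppp1ca, Dcn, Lum and Cdh5 were named outside this rule, after their values were seen. Mycl was matched as Mycl1, and 14 of 16 acinar markers were in the table. Labels name separate animals. Some genes that the rule names are not reported here. Alternatives were another pseudocount (1), no filter or a mean of 1 RPKM, 3 scalings, 1 fit over all 12 animals, weights for each sample, a block for the replicate number, and leaving out 1 animal at a time.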

Additional observations from a re-analysis of the deposited data

Results flagged for a closer look

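In 4 of 27 groups of 4 animals 1 animal stood apart from the other 3, by a gap to the nearest that took most of the group's whole range (above Dixon's 95% critical value). For normally distributed values chance gives such a gap in about 1 in 20 groups. These gaps were taken on RPKM and not on the log2 scale, and all 4 were high values. Groups of the same animals are also not independent, so 4 of 27 cannot be read as an excess. Slc2a2 was 15.63 RPKM in Wfs1HZ replicate 3, where the others were at 5.71 to 6.88 RPKM, and Slc30a8 was 133.95 RPKM in the same animal, where the others were at 33.78 to 48.34 RPKM. Slc30a8 was 53.89 RPKM in Wfs1KO replicate 4, with the others at 13.33 to 17.31 RPKM. G6pc2 was 76.32 RPKM in Wfs1KO replicate 2, with the others at 43.47 to 44.83 RPKM. Without Wfs1KO replicate 4 the log2 fold change of Slc30a8 against WT was -1.96.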

How the results depend on the processing

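No member had an adjusted p under 0.05 in any comparison under any of 18 alternatives each, with lowest values of 0.117, 0.143 and 0.767 for Wfs1KO against WT, Wfs1KO against Wfs1HZ and Wfs1HZ against WT. Against WT, all 8 members kept their sign in Wfs1KO islets. Against Wfs1HZ 6 did, and between Wfs1HZ and WT 2 did (Kcnj11 and Abcc8). The cause of the shifts was not tested. At an unadjusted p under 0.05 the count for Wfs1KO against WT was 3 to 5 with each animal left out. For Wfs1KO against Wfs1HZ it was 2 to 6, and 7 with sample weights. For Wfs1HZ against WT it was 0 to 2, and 1 with a mean of at least 1 RPKM or with all 12 animals in 1 fit. The signs that turned, on the log2 scale, were these. In Wfs1KO against Wfs1HZ, G6pc2 ran from -0.91 to 0.002 with each animal left out, and Abcc8 from -0.14 to 0.47, and Abcc8 was -0.001 relative to the endocrine genes, -0.095 with sample weights and -0.34 without Wfs1HZ replicates 2 and 4. In Wfs1HZ against WT, with each animal left out, Slc2a2 ran from -0.17 to 0.42, G6pc2 from -0.93 to 0.11, Ucn3 from -0.51 to 0.43, Slc30a8 from -0.51 to 0.15 and Aldh1a3 from -0.43 to 0.29. With sample weights G6pc2 was 0.26, Ucn3 0.76, Slc30a8 0.49 and Ppp1r1a 0.39. Relative to the endocrine genes Ucn3 was 0.11, Slc30a8 0.091 and Aldh1a3 0.098. Without Wfs1HZ replicates 2 and 4, chosen after seeing the data, G6pc2 was 0.14, Ucn3 0.66, Slc30a8 0.40 and Ppp1r1a 0.47. Scaling moved the share of higher calls among all transcripts with an unadjusted p under 0.05: it was 69.2%, 69.2% and 46.2% in the 3 comparisons as deposited, 56.6%, 49.8% and 54.4% with median-of-ratios scaling, 56%, 49.7% and 50.2% without acinar genes and insulin in the total, and 63.4%, 31.6% and 84.6% relative to the endocrine genes, which moved the median of all transcripts from 0.04 to -0.18 in Wfs1KO against Wfs1HZ and to 0.23 in Wfs1HZ against WT. Animals that share a replicate number are different animals, and the correlations of their deviations were -0.17 to 0.23, so the numbers were not taken as a pairing. With the replicate block 5, 4 and 0 members had an unadjusted p under 0.05, and the log2 fold change of Slc2a2 in Wfs1KO against WT stayed -1.03 with an adjusted p of 0.925. In Wfs1KO against WT the block left Slc2a2 above an unadjusted p of 0.05 and brought Abcc8 under it. The block moved the count of all transcripts with an unadjusted p under 0.05 from 1225 to 1091, from 532 to 395 and from 511 to 854, and not every animal correlated best with its own number. Wfs1 itself in Wfs1KO against WT had an adjusted p above 0.05 in 14 alternatives, with the same sign in all. On the estimated depth, which is uncertain, counting limits Aldh1a3 most, with 8 reads in its lowest animal.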
